A study of Mus musculus with 12 samples.

Results

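Blood stem and progenitor cells are held in the marrow by surface receptors that bind stromal ligands, and 9 genes of this machinery were followed here: Cxcr4, Vcam1, Itga4, Itgb1, Itga6, Itgal, Cd44, Selplg and Nedd9. They were found by symbol in both deposited count tables, each of which lists 24538 genes, and all 9 passed the filter on low counts in every fit. Gene expression had been measured by RNA sequencing in 12 libraries that form 6 groups of 2: LSK cells labelled Tet2 KO (knockout), Tet2 Mut (mutant) and wild type (WT), and cells labelled MPP of the same 3 genotypes. LSK cells are the lineage-negative marrow fraction positive for Sca-1 and Kit, and MPP commonly stands for multipotent progenitor. All mice were of a mixed 129/C57/B6 background and aged 10 weeks. Each genotype's cells were sorted from the pooled marrow of 2 mice, and each pool and population gave 2 technical replicate libraries, so errors and p values reflect how 2 libraries of the same pool differed, and the spread from mouse to mouse is not in them. The labels give neither the alleles of KO and Mut nor the MPP gate, and the titles of the MPP libraries read Lin.

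Retention in the marrow rests on several receptor and ligand pairs. Cxcr4 senses the chemokine Cxcl12 of the stroma, integrins of the Itgb1 and Itgb2 families bind Vcam1, fibronectin, laminin and intercellular adhesion molecules, and Cd44 and Selplg bind hyaluronan and selectins. Scaffold proteins such as Nedd9 carry signals from bound integrins to the cytoskeleton. Loss or blockade of these contacts releases stem and progenitor cells into the blood.

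Gene counts ran from 9181027 to 23532847 per library, and levels below are in CPM (each gene's share of a library's counts, scaled to a common size) with library sizes adjusted by the trimmed mean of M values (TMM), where 3 counts correspond to 0.135 to 0.317 CPM. The LSK WT libraries stood apart, with 12470 and 12614 genes detected against 13333 to 14264 in the other libraries, and 169 genes that averaged 50 counts or more in them read 0 in a single library, against 2 to 53 such genes in the other groups. Tet2 was at 29.2 to 31.7 CPM in LSK KO, 43.4 to 44.4 in LSK Mut and 62.7 to 87.3 in LSK WT, but at 34.9 in both libraries labelled MPP KO, 37.4 to 40.2 in MPP Mut and 29.4 to 39.6 in MPP WT, so the MPP libraries do not separate by it. A count over the whole gene does not show which exons were read. The LSK label matched its markers: Kit, Ly6a (which encodes Sca-1) and Flt3 were all higher in every LSK library than in every MPP library. The libraries labelled MPP were low in them, with Ly6a at 10.4 to 20.5 CPM against 58.4 to 163 in LSK, while 10 granulocyte-monocyte progenitor markers summed to 48790 to 63924 CPM against 2345 to 6526 CPM in LSK. That goes against a multipotent, Sca-1-positive fraction, and the libraries are called MPP only as the labels do.

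Nedd9 had a large genotype contrast within LSK, and Cxcr4 lay apart between the populations in all 3 genotypes. The 250 bases before their RefSeq starts are shown so that these sequences can be read beside their values. Capitals mark matches, on either strand, to the TATA box (TATAAA), the CCAAT box (CCAAT), the GATA motif (GATAA), the AP-1 motif (TGANTCA) or the E-box (CACGTG). The windows are from RefSeq on GRCm38.p6, chr13:41359002-41359251 for Nedd9 and chr1:128592300-128592549 for Cxcr4, both on the minus strand.
Nedd9: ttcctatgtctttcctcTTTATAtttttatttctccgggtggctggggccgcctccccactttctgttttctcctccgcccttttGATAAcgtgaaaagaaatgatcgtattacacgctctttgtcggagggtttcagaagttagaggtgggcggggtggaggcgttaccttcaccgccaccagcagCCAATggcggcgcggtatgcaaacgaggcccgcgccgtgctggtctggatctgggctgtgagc
Cxcr4: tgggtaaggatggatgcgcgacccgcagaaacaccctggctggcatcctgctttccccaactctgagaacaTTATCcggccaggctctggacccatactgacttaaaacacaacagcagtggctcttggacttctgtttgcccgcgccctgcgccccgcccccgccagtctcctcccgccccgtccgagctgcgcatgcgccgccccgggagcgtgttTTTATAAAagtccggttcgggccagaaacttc
Nedd9 held 1 TATA, 1 CCAAT and 1 GATA match, and Cxcr4 held 2 TATA matches, which overlap in the same stretch on both strands, and 1 GATA match. No AP-1 or E-box match lay in either window. Over all 32851 RefSeq promoter windows of that length, 12.4% held a TATA match, 33.8% a CCAAT match, 22.6% a GATA match, 6.75% an AP-1 match and 6.02% an E-box match. CG dinucleotides, the sites where TET enzymes oxidise methylated cytosine, numbered 17 in Nedd9 and 19 in Cxcr4, against a median of 6. As many or more were found in 23.5% and 19.7% of windows. The Nedd9 window lies inside the span of the gene in GENCODE (ENSMUSG00000021365.15, chromosome 13, 41309581 to 41487362, minus strand), so the annotated gene reaches further upstream, and the counts do not tell starts apart. Windows were also found for Itga4, Itgb1 and Cd44, with 6, 21 and 5 CG dinucleotides. Vcam1, Itga6, Itgal and Selplg were not matched.

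**Figure D1:**
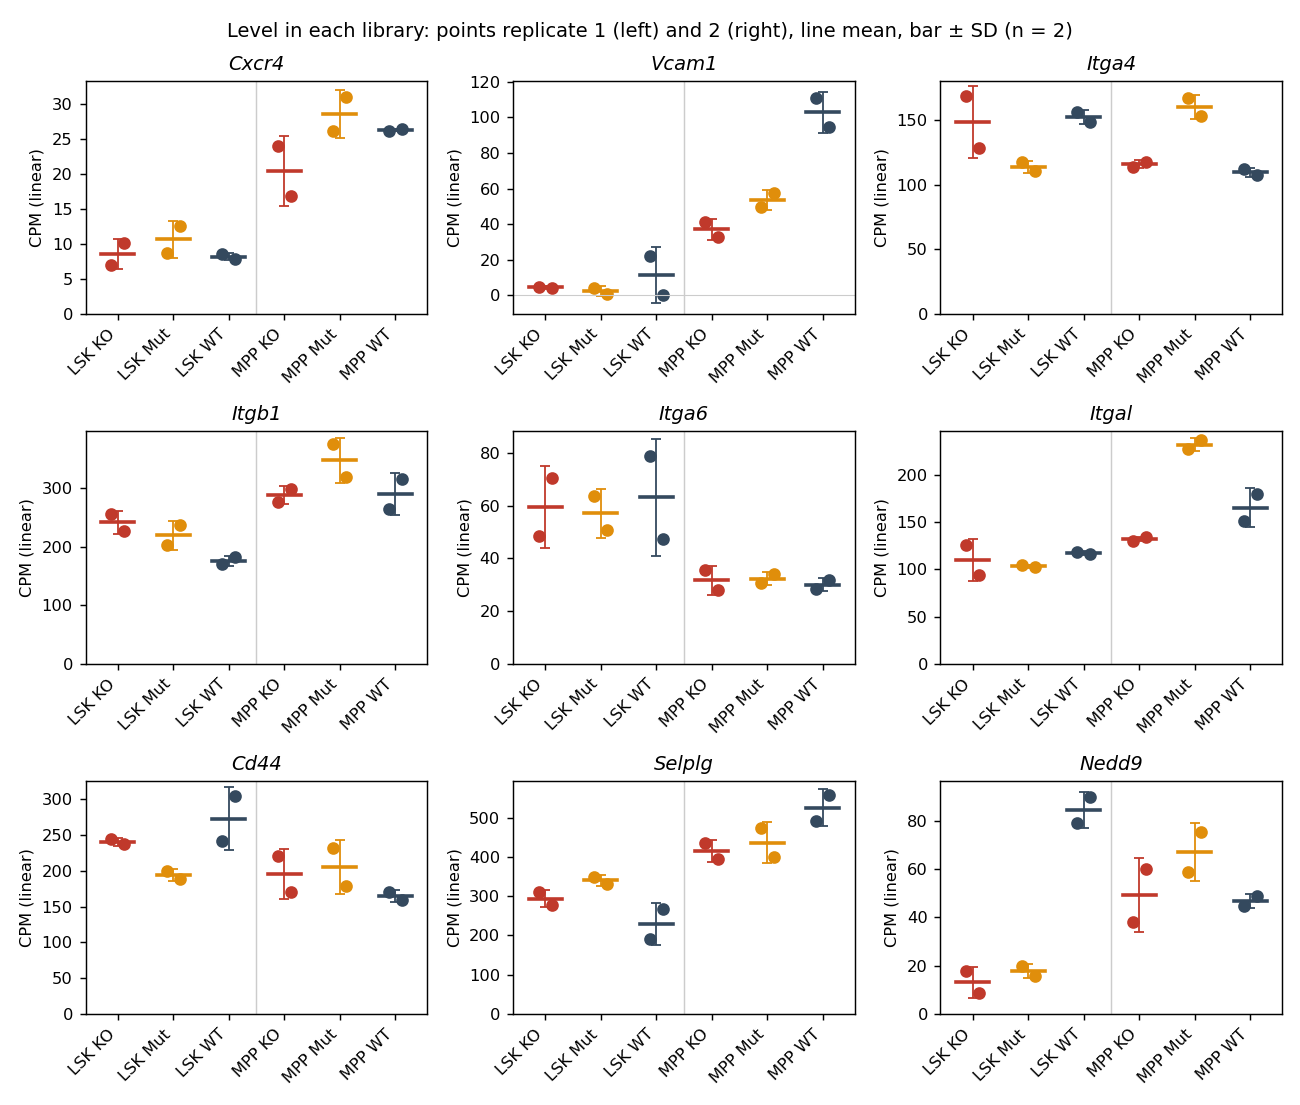
Level of each of the 9 genes in CPM (vertical axis, linear) in the 12 libraries, with the 6 groups on the horizontal axis, KO, Mut and WT within LSK and then within MPP; points are libraries, lines means and bars the SD. Nedd9 lies at 8.55 to 19.9 CPM in LSK KO and LSK Mut and at 79.2 and 89.8 in LSK WT, and the 2 LSK WT libraries of Vcam1 stand at 22.4 and 0.319 CPM.

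Per kilobase of exon, which allows genes to be compared, the mean level over the 12 libraries was highest for Selplg at 87.5 CPM per kb and Itgb1 at 63.7, followed by Cd44 at 31.3 and Itgal at 21.8. Itga4 at 9.54, Cxcr4 at 9.47, Nedd9 at 7.27 and Itga6 at 5.06 followed, and Vcam1 was lowest at 3.99. Across the 6 group means in CPM, Vcam1 varied most, from 2.51 ± 2.63 CPM in LSK Mut, whose libraries stood at 4.37 and 0.648, to 103 ± 11.5 in MPP WT (SD, n = 2 each). The ratio of highest to lowest mean was 6.47 for Nedd9, 3.50 for Cxcr4 and 1.46 to 2.30 for the other members. For Cxcr4, Vcam1, Itgb1, Itgal and Selplg all 3 LSK means lay below all 3 MPP means, and for Itga6 they lay above, while Itga4, Cd44 and Nedd9 mixed the populations. How many of all genes order in these ways was not counted, nor how many have genotype groups without overlap, as given below for some members. Between the populations 15.2% of all genes were called in KO, 8.76% in Mut and 24% in WT. Itga4 had a single gap in its order, between LSK KO at 149 ± 28.2 CPM and MPP KO at 116 ± 2.90 (SD, n = 2 each).

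Nedd9 encodes a scaffold of the Cas family that is phosphorylated when integrins are engaged. In LSK it was at 17.6 and 8.55 CPM in KO and at 19.9 and 15.7 in Mut, against 79.2 and 89.8 in WT. All 4 KO and Mut libraries thus lay below the lowest WT library, and the KO and Mut libraries overlapped each other. The fitted log2 difference of KO from WT was -2.71 (SE 0.451, unadjusted p = 0.000438), but edgeR's quasi-likelihood test left it above the threshold over all genes (Benjamini-Hochberg adjusted p = 0.157). That of Mut from WT was -2.27 (SE 0.442, unadjusted p = 0.00116, adjusted p = 0.0591), and it missed the threshold as well, with -1.23 under spike-in scaling. Both share the WT libraries, so they are not independent. DESeq2 called both (adjusted p = 2.56e-06 for KO and 5.04e-05 for Mut), and edgeR with no filter did too (adjusted p = 0.0251 and 0.0152). Both settings called more genes in all than the 6 for KO and 168 for Mut of the main fit. DESeq2 called 593 and 1398, and edgeR with no filter 50 and 475. Without LSK WT replicate 1 or 2, with the lone WT library assumed to vary like the other groups, edgeR also called Nedd9 (adjusted p 0.00593 and 0.00690 for KO, 0.00674 and 0.00892 for Mut). Those fits called 1475 and 1690 genes in all for KO, where 6 were called with every library, and 2430 and 2631 for Mut, where 168 were. Without 1 of the other LSK libraries the adjusted p was 0.479 to 0.848 for KO and 0.139 to 0.396 for Mut.

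In order of mean level, Nedd9 stood at 13.1 ± 6.38 CPM in LSK KO, 17.8 ± 2.98 in LSK Mut, 46.7 ± 2.90 in MPP WT, 49.2 ± 15.5 in MPP KO, 67.1 ± 12.0 in MPP Mut and 84.5 ± 7.56 in LSK WT (SD, n = 2 each). Neighbours in that order overlapped within LSK KO and Mut and within the MPP groups, while gaps separated LSK Mut from MPP WT and MPP Mut from LSK WT. Nedd9 overlaps 4 antisense genes and 1 further transcript in GENCODE that have no entry of their own in the count tables, and whether counting kept the strand is not given.

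In the cells labelled MPP, Nedd9 showed no such gap. It was at 38.3 and 60.1 CPM in the libraries labelled KO and 58.6 and 75.5 in Mut, against 44.6 and 48.7 in WT, so the KO libraries spanned the WT ones. Subtracting the log2 change in MPP from that in LSK gave -2.77 for KO (SE 0.527, adjusted p = 0.0440) and -2.77 for Mut (SE 0.526, adjusted p = 0.0218). These were the 2 differences between populations that passed the threshold among the 9 genes, in a test that called 0.727% of 14033 genes for KO and 2.53% for Mut. At an unadjusted p of 0.05 there were 3 of 9 for KO and 5 of 9 for Mut, against 12.4% and 17% of genes. The call for KO was lost without any one of the 10 libraries other than the LSK WT pair (adjusted p 0.0577 to 0.173). The call for Mut was lost without LSK Mut replicate 1 or 2, MPP Mut replicate 1 or 2 or MPP WT replicate 1 or 2 (adjusted p 0.0561 to 0.0943). Under scaling by spike-ins neither passed (adjusted p = 0.255 and 0.182), and the Mut difference shrank to -1.15.

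Some markers used to subdivide the LSK fraction also lay apart between LSK WT and the other LSK groups. Slamf1, a surface receptor of stem cells, averaged 5.07 CPM in LSK KO and 4.07 in LSK Mut, against 35.0 in LSK WT, and Mecom, a stem cell transcription factor, 25.7 and 25.9 against 58.0. Hlf of the same list averaged 141 and 118 against 205 CPM. None of these differences was called. Cd48, found on more committed progenitors, ran the other way at 233 and 232 against 120 CPM, and its difference of Mut from WT passed the threshold (log2 0.94, adjusted p = 0.0392). Ly6a (156 and 123 against 75.8 CPM), Procr (40.5 and 48.2 against 28.8) and Cd34 (1108 and 990 against 752) were higher in KO and Mut than in WT. Their KO and Mut libraries did not overlap those of WT, and none of these genotype differences in LSK was called. The 10 gate markers summed to 3621 to 3684 CPM in KO and 3000 to 3261 in Mut, against 2964 to 3201 in WT, and none was at or under 3 counts in both libraries of an LSK group. The 10 granulocyte-monocyte progenitor markers lay apart as well, summing to 5190 to 5499 CPM in LSK KO and 6264 to 6526 in LSK Mut, against 2345 to 2820 in LSK WT, with 1 of them at or under 3 counts in both WT libraries. Mpo, the myeloperoxidase of granules, rose to 3910 ± 124 CPM in LSK KO (adjusted p = 0.00244) and 4497 ± 233 in LSK Mut (adjusted p = 0.000220), against 1580 ± 81.8 in LSK WT (SD, n = 2 each). Elane and Ly6c2 were called higher in LSK Mut too (adjusted p = 0.0241 and 0.0388). Thus 1 of 10 was called in LSK KO and 3 in LSK Mut, where 0.0456% and 1.28% of all genes were called. Mpo made up most of the LSK sums, and Csf3r ran the other way by mean, at 230 CPM in KO and 196 in Mut against 270 in WT. Of the 10, 6 and 8 were called for the difference of the KO and of the Mut effect between populations, with the larger log2 change in LSK. There 0.727% and 2.53% of all genes were called. The 18 immediate early genes, which respond to stimulation and handling of cells, summed to 13138 to 13537 CPM in LSK KO and 15290 to 16417 in LSK Mut, against 16902 to 17089 in LSK WT. Of these genes 3, Klf4, Nr4a1 and Fosb, fell in LSK Mut (adjusted p 0.0108 to 0.0307), where 1.28% of all genes were called. In bulk samples fewer cells of a type and less RNA per cell cannot be told apart, and the part of these lists and of cell makeup in the Nedd9 difference was not tested.

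The genes closest to Nedd9 over the 12 libraries were Hcar2, Nupl1 and Mob1b, chosen as those with the smallest root mean square difference of centred log2 CPM among 9208 genes. They lay 0.451, 0.501 and 0.516 log2 units away. Hcar2 averaged 8.44 CPM in LSK KO and 8.77 in LSK Mut, against 30.2 in LSK WT, and 26.1 to 30.8 in the MPP groups. By group mean LSK WT thus sat above LSK KO and LSK Mut in Hcar2 as well, which its choice by likeness to Nedd9 favours. The MPP groups were nearer to LSK WT than they were for Nedd9.

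Vcam1 is a cell adhesion molecule of the immunoglobulin family, the counter-receptor of the integrin formed by Itga4 and Itgb1. It is best known from stroma and endothelium, and is also found on macrophages and on some blood stem and progenitor cells. In the cells labelled MPP it was at 41.4 and 33.0 CPM in KO and 49.6 and 57.8 in Mut, against 111 and 94.8 in WT. The 3 groups did not overlap, with WT highest and KO lowest. Libraries labelled MPP KO stood 2.77-fold below WT (log2 -1.47, SE 0.226), which passed the threshold (adjusted p = 0.0460). It was the 1 of 9 members called there, against 0.363% of 12947 genes. The call was lost without any one of the 6 MPP libraries (log2 -1.65 to -1.32, adjusted p 0.0585 to 0.315), with spike-in scaling (adjusted p = 0.0626) and with the spread of MPP KO and WT alone (0.0788), while the direction held in each. DESeq2 gave an adjusted p of 2.23e-06, in a fit that called 272 genes where edgeR called 47.

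The log2 values for Vcam1 were -0.94 for Mut against WT (SE 0.222, adjusted p = 0.211) and, for KO against Mut, -0.53 (SE 0.223, adjusted p = 0.509), or 0.12 under spike-in scaling. Neither passed the threshold. Vcam1 lies on chromosome 3 (116109949 to 116129688 of GRCm38, minus strand), 17.3 Mb from Tet2, the gene by which the groups are named.

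Markers of other cells were read in the same libraries. The 15 stroma and endothelium markers summed to 144 to 162 CPM in MPP KO and 190 to 232 in MPP Mut, against 175 to 181 in MPP WT, and 6 to 8 of them were at or under 3 counts in both libraries of each of the 6 groups. Cxcl12, the ligand of Cxcr4, was at 0 to 2.34 CPM in the MPP libraries and Cdh5, the endothelial cadherin, at 0 to 0.400. Others of that list were well above 0 in the MPP libraries, with Pecam1 at 63.9 to 112 CPM, Tie1 at 23.8 to 57.6 and Pdgfrb at 20.5 to 75.0. The 15 macrophage markers summed to 188 to 215 CPM in MPP KO and 176 to 239 in MPP Mut, against 171 to 198 in MPP WT. Of these, 6 in KO, 8 in Mut and 8 in WT were at or under 3 counts in both libraries. C1qa, C1qb and C1qc were at 0 in MPP WT, and Adgre1 averaged 19.7 CPM in MPP KO and 10.0 in MPP Mut, against 8.10 in MPP WT. Cd68 averaged 29.3 and 29.5 against 39.2, and Siglec1 was at 0 in every MPP KO and MPP Mut library, against 0 and 2.30 CPM in MPP WT. Csf1r, which made up most of the macrophage sums, averaged 138 CPM in MPP KO and 153 in MPP Mut, against 129 in MPP WT. The 10 granulocyte-monocyte progenitor markers summed to 48880 to 49548 CPM in MPP KO and 48790 to 51254 in MPP Mut, against 60653 to 63924 in MPP WT, an order in which WT is also highest. Their part in the Vcam1 difference was not tested.

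Within LSK, Vcam1 was at 5.03 and 4.09 CPM in KO and 4.37 and 0.648 in Mut, against 22.4 and 0.319 in WT. The WT libraries, with 212 and 4 counts, lay above and below all KO and Mut libraries, so the groups overlapped. No genotype difference in Vcam1 was detectable in LSK. Without LSK WT replicate 2 edgeR called Vcam1 for Mut against WT, from a lone WT library assumed to vary like the other groups. The genes closest to Vcam1 over the 12 libraries were Alox5, which makes leukotrienes, Ly6d and Fcgr3, an Fc receptor of myeloid cells, at 0.824, 0.963 and 0.971 log2 units.

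**Figure D2:**
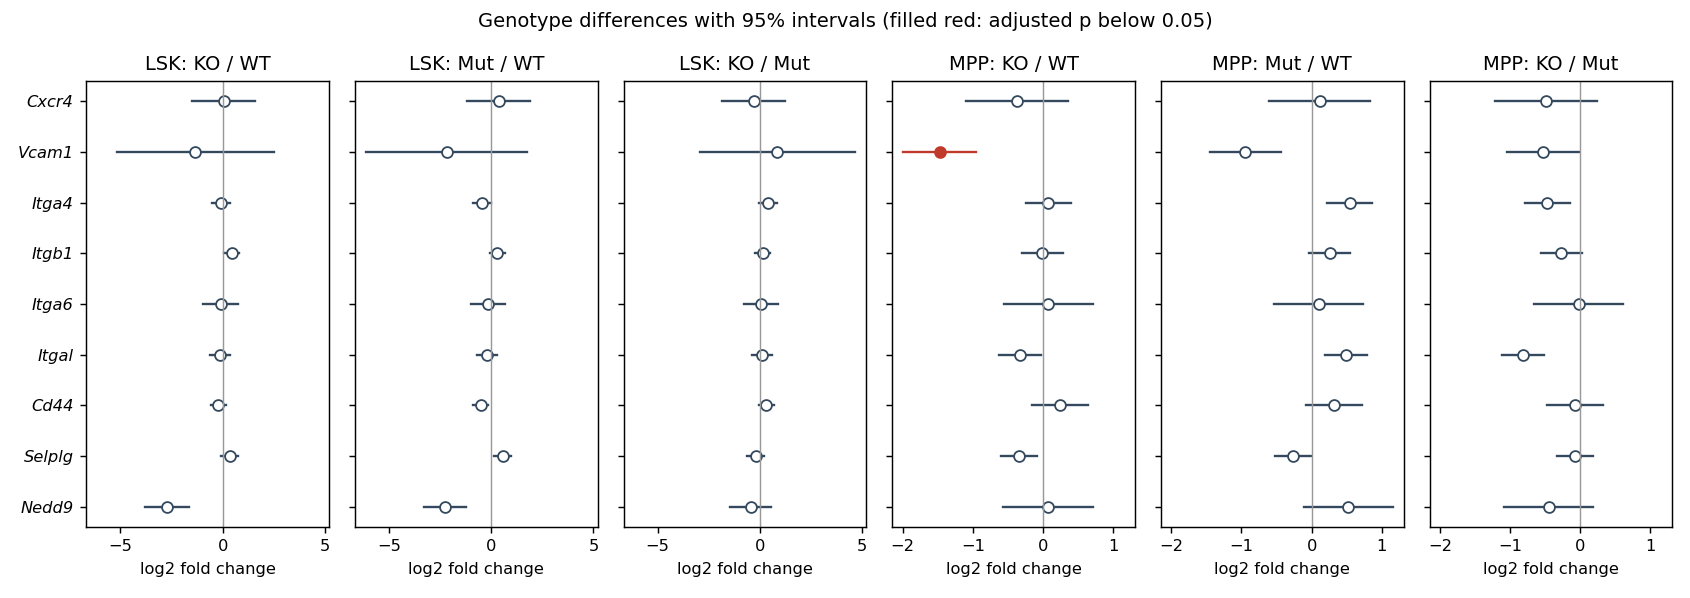
Fitted log2 fold change (horizontal axis) of the 9 genes for KO over WT, Mut over WT and KO over Mut, in LSK (left 3 panels) and MPP (right 3 panels), with bars for the 95% interval of the fit. Red filled points passed an adjusted p of 0.05, which is Vcam1 for MPP KO over WT, and the Nedd9 points of LSK KO and LSK Mut over WT lie at -2.71 and -2.27.

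**Figure D3:**
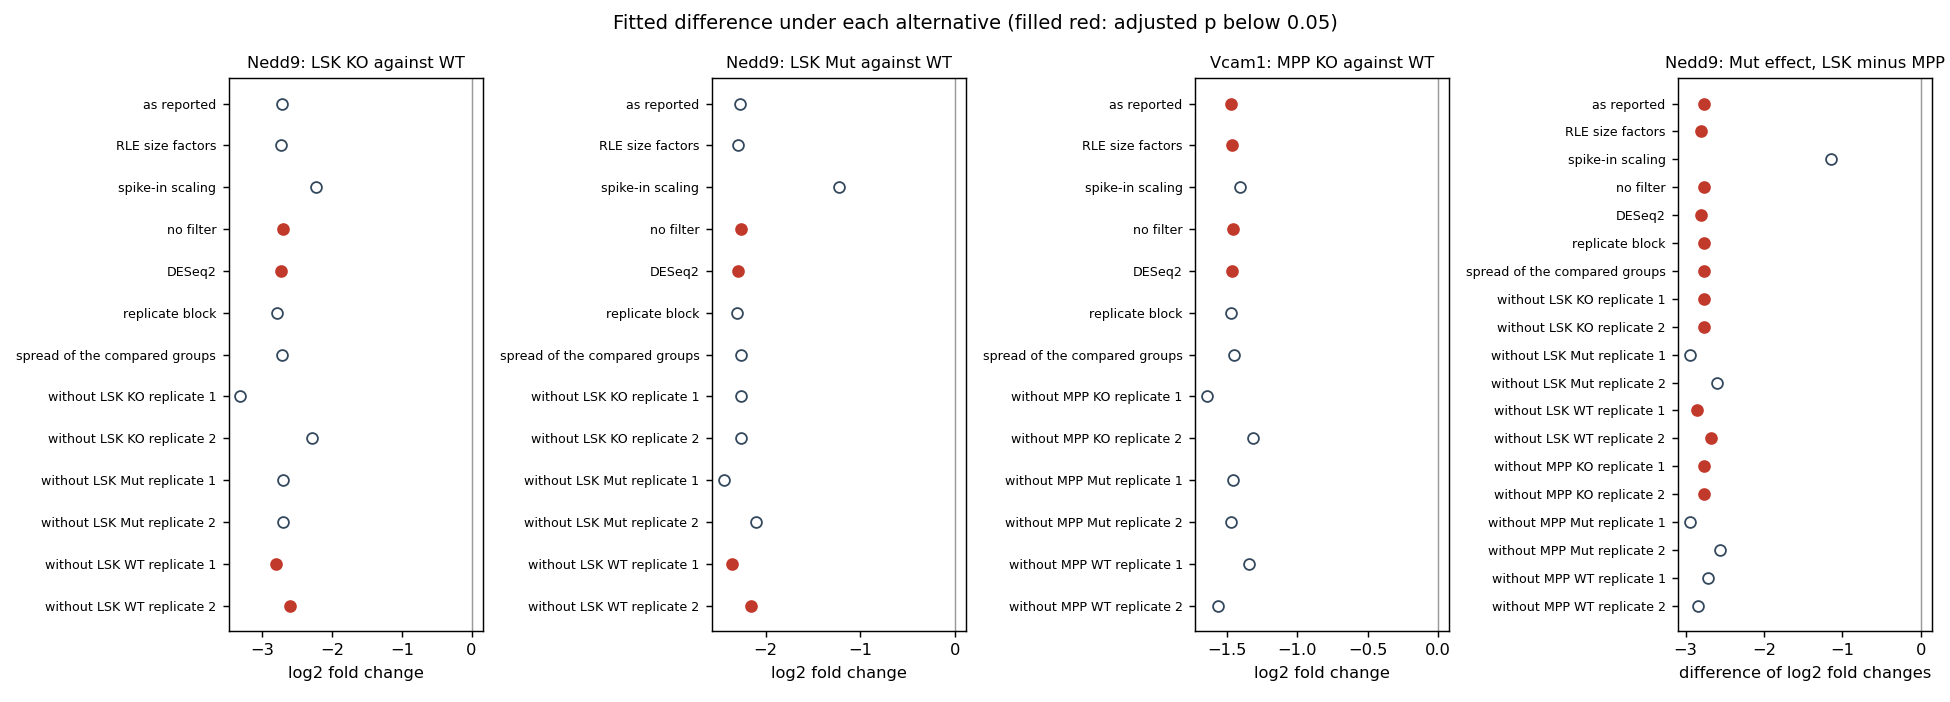
Fitted log2 difference (horizontal axis) as reported and under each alternative (vertical axis) for Nedd9 in LSK KO and LSK Mut against WT, Vcam1 in MPP KO against WT and the difference of the Mut effect on Nedd9 between LSK and MPP. Every point lies below 0, and red filled points passed an adjusted p of 0.05.

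Cxcr4, on chromosome 1 (128588199 to 128592293, minus strand), had no genotype difference detectable at these depths. In LSK it was at 7.02 and 10.1 CPM in KO and 8.73 and 12.5 in Mut, against 8.55 and 7.81 in WT, and the ranges overlapped. In MPP it was at 24.0 and 16.8 in KO and 26.2 and 31.1 in Mut, against 26.2 and 26.4 in WT, where both KO libraries lay below WT. No genotype comparison of Cxcr4 reached an unadjusted p of 0.05. The 95% interval of the log2 difference of KO from WT was wide, -1.51 to 1.61 in LSK and -1.09 to 0.35 in MPP.

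Itga4 and Itgb1 encode the alpha and beta chain of the integrin that binds Vcam1 and fibronectin. Itga4 (chromosome 2, 79255426 to 79333123, plus strand) was at 168 and 129 CPM in LSK KO and 117 and 111 in LSK Mut, against 156 and 149 in LSK WT. In MPP it was at 114 and 118 in KO and 167 and 153 in Mut, against 112 and 107 in WT, so that Mut was lowest among the LSK groups and highest among the MPP groups. Mut against WT in MPP gave a log2 of 0.54 (SE 0.140, adjusted p = 0.257), or -0.04 under spike-in scaling, and missed the threshold. The Mut effect on Itga4 differed between LSK and MPP by -0.97 (SE 0.230), close to the threshold but not past it (adjusted p = 0.0543), and by 0.69 under spike-in scaling. Cerkl, whose gene overlaps Itga4 on the opposite strand and whose reads cannot be told apart from its own if strand was not kept, stood at 1.12 to 9.29 CPM.

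Itgb1, the shared beta chain (chromosome 8, 128685654 to 128733200, plus strand), was at 255 and 227 CPM in LSK KO and 202 and 237 in LSK Mut, against 170 and 182 in LSK WT. All mutant libraries thus exceeded both WT libraries, with a log2 of 0.44 for KO against WT (SE 0.155, adjusted p = 0.305), which did not pass the threshold. In MPP it was at 276 and 299 in KO and 374 and 319 in Mut, against 264 and 315 in WT, where the groups KO and WT overlapped.

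Itga6, the alpha chain of laminin receptors (chromosome 2, 71745616 to 71858416, plus strand), overlapped between all genotypes. It was at 48.6 and 70.5 CPM in LSK KO and 63.7 and 50.6 in LSK Mut, against 78.8 and 47.4 in LSK WT. The MPP libraries ran from 27.8 to 35.6 CPM, with all 3 genotypes overlapping.

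Itgal, the alpha chain of the leukocyte integrin that pairs with Itgb2 and binds intercellular adhesion molecules (chromosome 7, 127296260 to 127335138, plus strand), separated the genotypes in MPP but not in LSK. In MPP it was at 130 and 134 CPM in KO and 227 and 237 in Mut, against 151 and 180 in WT. No library of one genotype overlapped another's, with Mut highest and KO lowest, and the share of all genes that separate so was not counted. KO against Mut came to a log2 of -0.81 (SE 0.132, unadjusted p = 0.000232), short of the threshold once all genes were counted (adjusted p = 0.0821). DESeq2 called it (adjusted p = 2.62e-05), in a fit that called 288 genes where edgeR called 31. Under spike-in scaling the log2 value was -0.16. Mut against WT gave 0.49 (SE 0.131, adjusted p = 0.278), or -0.11 under spike-in scaling. In LSK it was at 126 and 94.6 CPM in KO and 104 and 102 in Mut, against 119 and 116 in WT. The genes closest to Itgal were Ccl3, a chemokine, Nsdhl, an enzyme of sterol synthesis, and Copa, a coatomer subunit, at 0.163, 0.186 and 0.193 log2 units.

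Cd44, the hyaluronan receptor (chromosome 2, 102811141 to 102901665, minus strand), was at 245 and 237 CPM in LSK KO and 200 and 188 in LSK Mut, against 242 and 304 in LSK WT. Mut lay below both other groups, and its log2 difference from WT was -0.51 (SE 0.160, adjusted p = 0.162), or 0.56 under spike-in scaling. In MPP it was at 221 and 171 in KO and 232 and 179 in Mut, against 170 and 159 in WT, and neither difference from WT reached an unadjusted p of 0.05.

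Selplg, which encodes the ligand of P-selectin and contributes to binding of E-selectin (chromosome 5, 113818536 to 113832644, minus strand), had its WT libraries at opposite ends in the populations. It was at 310 and 279 CPM in LSK KO and 350 and 331 in LSK Mut, against 191 and 267 in LSK WT. In MPP it was at 436 and 395 in KO and 473 and 401 in Mut, against 493 and 560 in WT. WT was thus lowest in LSK and highest in MPP, without overlap, and the share of all genes that separate so was not counted. By TMM scaling the difference of the KO effects was 0.70 (SE 0.225, adjusted p = 0.216) and of the Mut effects 0.84 (SE 0.225, adjusted p = 0.0828), and neither passed the threshold. Under spike-in scaling they were 1.11 (adjusted p = 0.364) and 2.48 (adjusted p = 0.00185), where 2 and 5428 genes were called. Selplg was also called there for Mut against WT, at 1.62 in LSK (adjusted p = 0.0104) and -0.86 in MPP (adjusted p = 0.0165). Those comparisons called 3002 and 2297 genes. The genes closest to Selplg were Cfl1 and Arpc3, which act on actin filaments, and Pkm, a glycolytic enzyme, at 0.0864, 0.0943 and 0.0874 log2 units. Chosen for that likeness, they too were lowest in LSK WT and highest in MPP WT by group mean.

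Read as a set, the 9 genes showed few genotype calls. By edgeR 0 of 9 were called for LSK KO against WT (0.0456% of 13170 genes), 0 for LSK Mut against WT (1.28%) and 0 for LSK KO against Mut (0.0607%). At an unadjusted p of 0.05 there were 2, 3 and 0 of 9, against 13.8%, 19.1% and 4.24% of all genes. DESeq2 called 1, 2 and 0 of 9, in fits that called 593, 1398 and 116 genes in all. In MPP, besides the 1 call for KO against WT, edgeR called 0 of 9 in Mut relative to WT (0.224%) and 0 in KO relative to Mut (0.239%), with 3, 4 and 3 of 9 at an unadjusted p of 0.05 in the order KO against WT, Mut against WT and KO against Mut, against 8.47%, 9.75% and 9.48% of genes. DESeq2 called 1, 3 and 1 of 9, where it called 272, 302 and 288 genes in all. The median log2 difference of the members was -0.10, -0.20 and 0.09 in the LSK comparisons and -0.01, 0.26 and -0.45 in the MPP ones, beside medians of all genes between -0.01 and 0.01. By TMM scaling all 9 fitted differences of MPP KO from Mut were negative, but the spike-in scale shifted the median gene there by 0.65, and on that scale Itgal alone was negative (-0.16), while the other members lay between 0.12 and 0.62.

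More of the members were called between the populations. LSK was compared with the cells labelled MPP within each genotype. By TMM scaling 1 of 9 was called in KO (15.2% of 14033 genes), 3 in Mut (8.76%) and 5 in WT (24%). At an unadjusted p of 0.05 there were 6, 8 and 9 of 9, against 28.4%, 23.4% and 37.1% of genes. ERCC spike-in RNA took 0.0822% to 0.229% of counts in LSK and 3.16% to 5.15% in MPP, and spike-in scaling moved the median gene by 4.66 in KO, 5.88 in Mut and 4.17 in WT, so every direction below is relative to the other genes, and each member given as lower in LSK was higher under spike-in scaling. The labels do not say whether the populations were processed together.

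Selplg had the lowest adjusted p among the members in WT, at 191 and 267 CPM in LSK against 493 and 560 in MPP. Its log2 difference was -1.20 (SE 0.161, adjusted p = 0.000353, 3.01 under spike-in scaling), and the call held without each of the 12 libraries. In KO and Mut, where LSK libraries again lay below all MPP libraries, the differences of -0.50 (adjusted p = 0.0589) and -0.36 (adjusted p = 0.200) missed the threshold.

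Cxcr4 was lower in every LSK library than in every MPP library, at 7.02 to 12.5 CPM against 16.8 to 31.1. The log2 difference was -1.25 in KO (SE 0.442, adjusted p = 0.0847), -1.43 in Mut (SE 0.442, adjusted p = 0.0730) and -1.69 in WT (SE 0.448, adjusted p = 0.0189), with 3.39, 4.49 and 2.50 in the same order under spike-in scaling. The call in WT was lost without MPP WT replicate 1 or replicate 2. The genes closest to Cxcr4 over the libraries were Hexa, a lysosomal hexosaminidase subunit, Tmsb4x, an actin-binding thymosin, and Cd63, a tetraspanin, at 0.223, 0.238 and 0.246 log2 units. Chosen for that likeness, all of them were also lower in LSK group means than in MPP ones.

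Itgb1 fell in LSK against MPP in Mut (log2 -0.66, SE 0.144, adjusted p = 0.0160) and in WT (-0.72, SE 0.145, adjusted p = 0.00429), with 5.22 and 3.47 under spike-in scaling. The Mut call was lost without LSK Mut replicate 1 or MPP Mut replicate 1, and the WT call without MPP WT replicate 2. Itgal fell in Mut (-1.17, SE 0.168, adjusted p = 0.00149, 4.69 under spike-in scaling), a call kept without each of the 12 libraries. In WT its difference of -0.49 had an adjusted p of 0.0529.

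Cd44 and Itga6 ran the other way in WT and were higher in LSK by both scalings. Cd44 rose by a log2 of 0.73 (SE 0.176, adjusted p = 0.0114, lost without MPP WT replicate 2) and Itga6 by 1.07 (SE 0.330, adjusted p = 0.0367). All LSK libraries of Itga6 lay above all MPP libraries, at 47.4 to 78.8 CPM against 27.8 to 35.6. The genes closest to it were Rasal3, Ankhd1 and Ppp2r5e, at 0.175, 0.185 and 0.188 log2 units. Its call held in 2 of 12 fits that left out a library, those without LSK KO replicate 1 or LSK WT replicate 2. Under the spread of LSK WT and MPP WT alone only Selplg kept its call in WT.

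By TMM scaling Nedd9 differed between the populations in a way that varied with genotype. Under spike-in scaling it was higher in LSK in all 3 genotypes (log2 2.67 in KO, 3.90 in Mut and 5.05 in WT). On that scale neither difference of genotype effects passed the threshold, as given above. By TMM scaling Nedd9 fell in LSK against MPP in KO (log2 -1.91, SE 0.380, adjusted p = 0.00668) and in Mut (-1.92, SE 0.378, adjusted p = 0.00952). In WT its LSK libraries were higher (0.86, SE 0.368, adjusted p = 0.115), which missed the threshold. The KO call was lost without LSK KO replicate 2 or MPP KO replicate 2, and the Mut call without LSK Mut replicate 1, LSK Mut replicate 2 or MPP Mut replicate 2. Vcam1 was lower in every LSK library than in every MPP library, at 0.319 to 22.4 CPM against 33.0 to 111. Its fitted differences of -3.02 in KO, -4.42 in Mut and -3.19 in WT carried SE of 1.20, 1.28 and 1.19 and did not pass the threshold (adjusted p 0.0568 to 0.121). With no filter it was called in KO, Mut and WT (adjusted p 0.000111 to 0.00366), as it was without either LSK WT library. With the spread of the compared groups it was called in KO and Mut, and by DESeq2 in Mut. Leaving out 1 library moved the Mut difference between -6.35 and -3.62 and that in WT between -8.30 and -2.20, the outer values of WT being those without LSK WT replicate 1 and replicate 2.

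**Figure D4:**
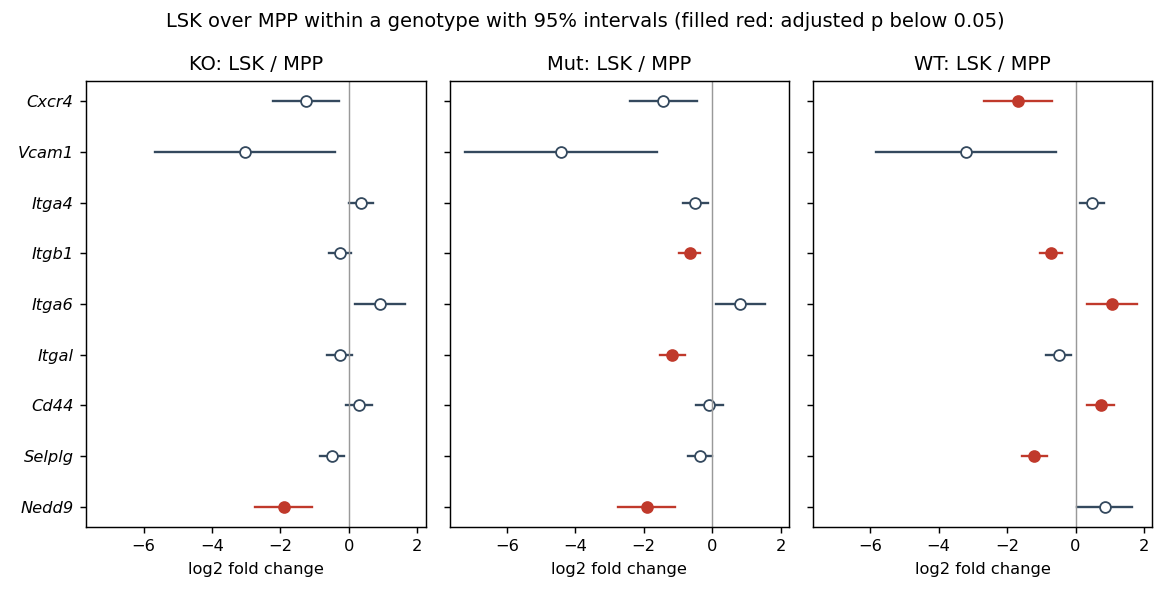
Fitted log2 fold change of LSK over MPP (horizontal axis) for the 9 genes in KO, Mut and WT, with bars for the 95% interval. Red filled points passed an adjusted p of 0.05 by TMM scaling: Nedd9 in KO, Itgb1, Itgal and Nedd9 in Mut, and Cxcr4, Itgb1, Itga6, Cd44 and Selplg in WT; those below 0 lie above 0 under spike-in scaling.

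Other genes of the same machinery were taken from lists chosen for their role. The lists held 20 other integrin subunits, 35 genes of integrin activation and adhesion signalling, 35 of Cxcr4 signalling and migration, 18 selectin and hyaluronan partners, 22 other adhesion and retention receptors and 15 niche ligands, and Rgs1 and Cd48 were among the genes of these lists that edgeR called in a genotype comparison. Rgs1, which damps chemokine receptor signalling, rose in MPP Mut to 526 ± 42.0 CPM against 272 ± 11.5 in MPP WT (SD, n = 2 each; adjusted p = 0.0111). It stood at 288 ± 19.3 CPM in MPP KO, lower than Mut (adjusted p = 0.0158). It was 1 of 33 genes tested of its list in each of these comparisons, where 0.224% and 0.239% of all genes were called. By TMM scaling the log2 differences of Rgs1 were 0.95 and, for KO against Mut, -0.87. Spike-in scaling moved the median gene by -0.59 and 0.65 in these 2 comparisons. The 18 immediate early genes summed to 12750 to 13089 CPM in MPP KO and 16075 to 16584 in MPP Mut, against 11777 to 12617 in MPP WT. Klf6, Egr1 and Fos of that list were called in the same 2 comparisons as Rgs1 and were higher in Mut in both (adjusted p 0.00268 to 0.00657 against WT, 0.00435 to 0.0114 for KO against Mut). Their part in the Rgs1 difference was not tested. Cd48, given above for LSK Mut, was 1 of 19 other receptors tested there, where 1.28% of all genes were called.

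Between the populations 15.2% of all genes were called in KO, 8.76% in Mut and 24% in WT, and the counts of each list stand beside those shares. Of 19 other adhesion and retention receptors tested, 9 were higher and 0 lower in LSK than in MPP in KO, 10 and 0 in Mut and 10 and 2 in WT, with medians of 2.33, 1.79 and 1.74 log2. Esam, a junctional adhesion protein of stem cells and endothelium, averaged 66.2 CPM in LSK KO and 80.8 in LSK Mut, against 0.993 and 4.91 in MPP KO and MPP Mut (adjusted p = 0.00706 and 0.0391). Angpt1, a ligand of the receptor Tek listed among niche ligands, was at 343 ± 46.1 CPM in LSK WT and 63.0 ± 1.77 in MPP WT (SD, n = 2; adjusted p = 2.59e-06).

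Among 32 tested genes of integrin activation and adhesion signalling 2 were higher and 6 lower in KO, 0 and 6 in Mut and 3 and 8 in WT, and among 12 niche ligands 3 and 1, 1 and 1 and 2 and 1. Of 18 other integrin subunits tested, 2 were higher and 2 lower in LSK than in MPP in KO, 1 and 4 in Mut and 3 and 4 in WT. Among 34 genes of Cxcr4 signalling and migration the numbers were 6 and 6 in KO, 0 and 4 in Mut and 3 and 9 in WT, and among 18 selectin and hyaluronan partners 1 and 4, 0 and 5 and 1 and 6. The leukocyte integrins were among the lower ones. Itgb2, the beta chain that pairs with Itgal, was at 44.1 ± 5.65 CPM in LSK KO and 212 ± 33.7 in MPP KO (adjusted p = 0.000161), and Itgb7, a partner of Itga4, at 62.6 ± 14.0 and 198 ± 16.9 (SD, n = 2; adjusted p = 0.000385). St3gal6, a sialyltransferase that helps to make selectin ligands on Selplg, was at 3.34 ± 1.59 CPM in LSK WT and 28.8 ± 8.73 in MPP WT (adjusted p = 0.00117). Under spike-in scaling a fall of these sizes is smaller than the shift of the median gene.

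Rac2, a blood-cell GTPase of cell migration, and Parvg, a parvin of the integrin-linked kinase complex, were called for differences of both genotype effects between populations. For Rac2 the log2 change in LSK exceeded that in MPP by 0.66 for KO (adjusted p = 0.0422) and 0.70 for Mut (adjusted p = 0.0156). For Parvg the values were 0.99 (adjusted p = 0.0431) and 1.03 (adjusted p = 0.0169). Both effects share the WT libraries of each population. Parvg was the 1 call among 32 tested members of its list in each contrast, and Rac2 the 1 call among 34 for KO. For Mut, Rgs1 (-0.86, adjusted p = 0.0421) and Rgs2 (-0.69, adjusted p = 0.0231) of Rac2's list passed too, in the opposite direction. The shares of all tested genes that passed were 0.727% (KO) and 2.53% (Mut). Spike-in scaling put the median gene at 0.51 (KO) and 1.74 (Mut), the latter above the Mut values of Rac2 and Parvg.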

How the data were processed

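The values deposited by the authors are unnormalised read counts by gene symbol, in a separate table for LSK and for MPP, each with 24630 symbols that include 92 ERCC spike-ins. Per the labels, RNA was amplified with spike-ins added, and libraries were made as technical replicates. The submitters' processing notes name Trim Galore 0.4.1, TopHat2 2.0.13, HTSeq 0.6.1, Cufflinks and the build mm10, without roles. The strand setting and annotation are not given in the sources used here. One MPP column repeats the number of another library in its name and was assigned to MPP KO replicate 2 by its ending. No other columns were left over.

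Genes were tested with edgeR 4.0.16 in R 4.3.3 (filterByExpr by group, minimum count 10 and total 15, TMM over genes, quasi-likelihood fits). Genotypes were fitted within a population (13170 LSK and 12947 MPP genes, with 3 residual degrees of freedom), and differences between populations over all 12 libraries (14033 genes, 6 degrees of freedom). P values were two-sided, adjusted by Benjamini-Hochberg over all genes tested, with a threshold of 0.05. The SE is the log2 difference divided by the root of its F statistic. CPM come from the 12-library scaling. Log2 differences of members by TMM scaling are given only where the unadjusted p was below 0.05, and some such differences are not given. Alternatives were RLE size factors, spike-in scaling, no filter, DESeq2 1.42.0, a spread from the compared groups alone, the replicate number as a block, and leaving out each library. The test was tried on simulated counts.

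The members, gene lists and naming rule (members, and up to 4 called genes a list and comparison with the largest change, of which a selection is described) were chosen with earlier results of these data known. Like-patterned genes had to average 10 CPM. Positions and exon lengths are from GENCODE M21 on GRCm38, promoters from RefSeq, with 5 of 9 members matched. Counting floors cover counting error only. Some genes of the lists are not reported here.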

Additional observations from a re-analysis of the deposited data

Results flagged for a closer look

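The Nedd9 results were marked because a genotype effect differed between LSK and MPP by a test of the difference itself. The log2 change of KO from WT in LSK minus that in MPP was -2.77 by edgeR (adjusted p = 0.0440). That of Mut was -2.77 (adjusted p = 0.0218), and both rest on the same WT libraries. Under spike-in scaling neither passed the threshold (adjusted p = 0.255 and 0.182).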

How the results depend on the processing

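The counts of the 9 members called (as reported in parentheses) moved as follows. In the order below, spike-in scaling called 71, 3002 and 8 of all genes in LSK and 15, 2297 and 3254 in MPP. It called 12011, 12570 and 11550 of 14033 for LSK against MPP, and 2 and 5428 for differences of effects. DESeq2 called 593, 1398 and 116, then 272, 302 and 288, then 3163, 2249 and 4560, then 580 and 1093. No filter gave 50, 475 and 22, then 189, 217 and 195, then 2527, 1715 and 3811, then 278 and 662. The spread of the compared groups gave 3509, 1696 and 953 for LSK against MPP. For LSK KO against WT (0) the count was 1 without the filter and with DESeq2, and 0 to 2 without one library. For LSK Mut against WT (0) it was 2 with spike-in scaling, 1 without the filter, 2 with DESeq2 and 0 to 3 without one library. For LSK KO against Mut it was 0 throughout. For MPP KO against WT (1) it was 0 with spike-in scaling, with the replicate block and with the spread of the compared groups alone, and 0 without any one library. For MPP Mut against WT (0) it was 2 with spike-in scaling, 1 without the filter, 3 with DESeq2 and 0 without any one library. For MPP KO against Mut (0) it was 1 with spike-in scaling, without the filter and with DESeq2, and 0 without any one library. For LSK against MPP in KO (1) it was 2 with RLE size factors, 8 with spike-in scaling, 3 without the filter, with DESeq2 and with the spread of the compared groups, and 0 to 5 without one library. In Mut (3) it was 8 with spike-in scaling, 6 with DESeq2, 4 (Vcam1 added) with no filter, the replicate block or the spread of the compared groups, and 1 to 5 without one library. In WT (5) it was 8 with spike-in scaling, 7 with DESeq2, 6 with RLE or no filter, 1 with the spread of the compared groups and 1 to 6 without one library, and the replicate block kept 5 with Vcam1 in place of Itga6. For the difference of KO effects (1) it was 0 with spike-in scaling, the replicate block and the spread of the compared groups, and 0 to 2 without one library. For that of Mut effects (1) it was 2 with RLE, 3 with spike-in scaling, 2 without the filter, 4 with DESeq2 and 0 to 3 without one library.

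Of 46 log2 differences followed, 24 changed sign, all under spike-in scaling. For LSK against MPP in KO these were Cxcr4 (3.39), Vcam1 (1.59), Selplg (4.12) and Nedd9 (2.67). In Mut they were Cxcr4 (4.49), Vcam1 (1.14), Itga4 (5.35), Itgb1 (5.22), Itgal (4.69), Selplg (5.48) and Nedd9 (3.90), and in WT Cxcr4 (2.50), Vcam1 (0.89), Itgb1 (3.47), Itgal (3.69) and Selplg (3.01). Among genotype contrasts they were Cd44 in LSK Mut against WT (0.56), Itga4 (-0.037) and Itgal (-0.11) in MPP Mut against WT, and Vcam1 (0.12) and Itga4 (0.18) in MPP KO against Mut. For the difference of Mut effects they were Itga4 (0.69), Itgal (0.996) and Cd44 (0.82). Spike-in scaling moved the median gene by 0.51, 1.10 and -0.59 in LSK KO against WT, Mut against WT and KO against Mut, and by 0.05, -0.59 and 0.65 in the same MPP comparisons. The cause was not tested.

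Over all genes, the calls ranged from 0 to 1690 for LSK KO against WT (6 as reported), 5 to 3002 for LSK Mut against WT (168) and 2 to 116 for LSK KO against Mut (8). They ranged from 10 to 272, 15 to 2297 and 10 to 3254 for MPP KO against WT (47), Mut against WT (29) and KO against Mut (31). For LSK against MPP they ranged from 991 to 12011 in KO (2128), 540 to 12570 in Mut (1229) and 953 to 11550 in WT (3361), and for the differences of effects from 2 to 903 for KO (102) and 54 to 5428 for Mut (355).

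Samples that share a replicate number did not deviate together: over 15 pairs of groups the correlation ran from -0.02 to 0.03, and 0 exceeded 0.1, so the numbers were not taken to pair the libraries. With the number as a block, 41 of the 46 differences stayed on their side of the threshold, 3 lost and 2 gained a call. With 2 technical libraries a group from 1 pool, spread between mice was not measured.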
